A study of Mus musculus with 8 samples.

Results

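The opioid system of the mouse striatum was followed through 7 genes, read from the raw count table by their symbols out of 55376 features. They comprised 3 peptide precursors, Penk, Pdyn and Pnoc, and 4 receptors, Oprm1, Oprd1, Oprk1 and Oprl1. The libraries came from the left striatum of 8 female mice aged 4 months on a mixed C57Bl/129S2/Sv background, with 1 ribosomal RNA-depleted library per mouse. All 8 mice carried the floxed Bcl11b allele tm1.1Leid, and 4 of them, the D9-Cre-Bcl11b tm1.1Leid mice, also carried a D9-Cre transgene, whereas the 4 Cre- mice did not. D9 is a regulatory element of Ppp1r1b, the gene for DARPP-32, which drives Cre after birth in medium spiny neurons (MSNs), the projection neurons of the striatum, so that other cell types of the tissue were not targeted. Bcl11b encodes the zinc finger transcription factor CTIP2, and the comparison asks how its loss from MSNs changes striatal transcripts. The Cre- mice control for the floxed allele but not for the presence of Cre itself.

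Opioid peptides are cut from large precursor proteins in dense core vesicles and act on receptors that couple to inhibitory G proteins. Penk encodes the precursor of the enkephalins, which act mainly on the delta receptor (Oprd1) and the mu receptor (Oprm1). Pdyn encodes the precursor of the dynorphins, the ligands of the kappa receptor (Oprk1), and Pnoc encodes that of nociceptin, the ligand of the nociceptin receptor (Oprl1). In the striatum, Penk marks MSNs of the indirect pathway, which express the dopamine receptor Drd2. Pdyn and the tachykinin precursor Tac1 mark MSNs of the direct pathway, which express Drd1. Mu receptors are dense in the striosomes, patches set within the surrounding matrix.

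Total counts ran from 47059264 to 50213377 in Cre- mice and from 51536311 to 70247098 in D9-Cre-Bcl11b tm1.1Leid mice. Bcl11b itself fell from 393 ± 87.4 to 146 ± 4.16 CPM (read counts scaled to library size with TMM factors; mean ± SD, n = 4 mice per group), with a log2 fold change of −1.43 (SE 0.13, edgeR adjusted p = 7.06e-05) and no overlap between groups. MSN markers were abundant in every library. Ppp1r1b stood between 777 and 851 CPM in Cre- mice and between 547 and 597 CPM in D9-Cre-Bcl11b tm1.1Leid mice. It fell with no overlap between groups (log2 fold change −0.51, edgeR adjusted p = 2.03e-04). Markers of neighbouring tissue varied from mouse to mouse. The cortical gene Slc17a7 was highest in mouse 4 of both groups, at 90.1 CPM in the Cre- mouse and 91.9 CPM in the D9-Cre-Bcl11b tm1.1Leid mouse, against 7.32 to 31.9 CPM in the other 6 mice. The choroid plexus gene Ttr reached 9410 CPM in D9-Cre-Bcl11b tm1.1Leid mouse 2. Libraries of one group differed from each other by 11.8 to 57.6 times their counting variance, so that none was a copy of another.

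One receptor rose and a precursor with its receptor fell (edgeR quasi-likelihood test, adjusted p under 0.01 over all 22173 genes tested). Oprl1 was higher with the deletion, at 212% of the Cre- level, whereas Penk was lower, at 79.6%, and Oprd1 was lower, at 73.0%. Oprm1, Oprk1, Pdyn and Pnoc did not pass. Thus 3 of the 7 genes passed, 1 higher and 2 lower, against 8.78% of all genes tested, of which 4.87% were higher and 3.91% lower. The same 3 genes were those whose groups did not overlap, a pattern shown by 22.0% of all genes tested. All 7 genes passed the filter on low counts, and their median log2 fold change was −0.45, against −0.00 over all genes tested. When each mouse was left out in turn, Oprl1 passed in 8 of 8 fits, Penk in 5 and Oprd1 in 0. Without mouse 4 of both groups, the mice with the highest Slc17a7, Penk (adjusted p = 0.0203) and Oprd1 (adjusted p = 0.0289) no longer passed, and Oprl1 and Oprk1 did. In bulk tissue, fewer cells of a type and less RNA per cell cannot be told apart.

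**Figure D1:**
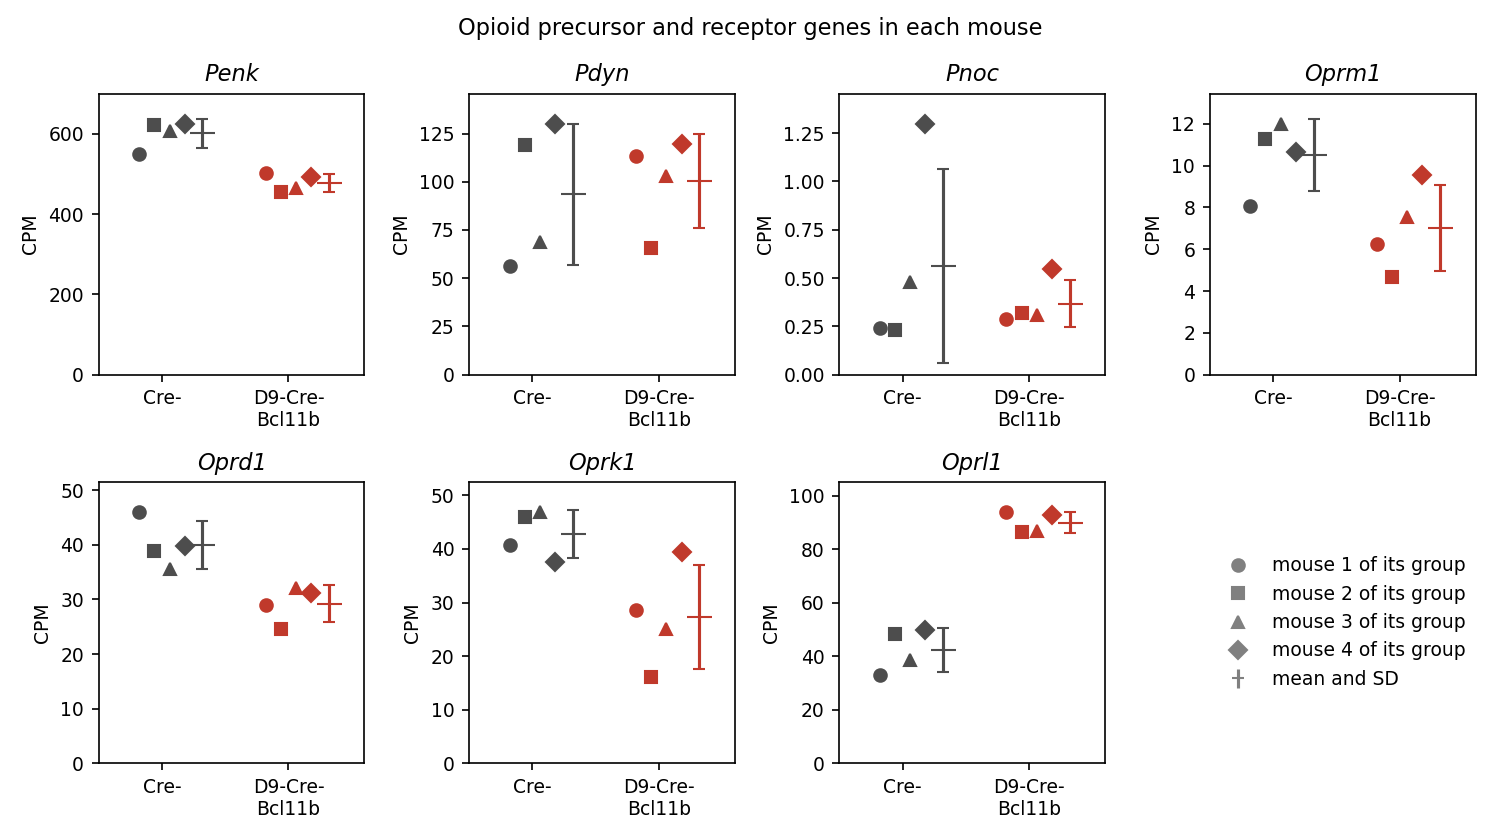
CPM of each opioid gene (vertical axes, each starting at 0) in the 4 Cre- mice (grey) and the 4 D9-Cre-Bcl11b tm1.1Leid mice (red). Each symbol is 1 mouse and the bars give mean and SD. The groups are fully apart for Penk, Oprd1 and Oprl1 and overlap for the other 4 genes.

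The promoters of Oprl1 and Oprd1, the receptors that passed the test in opposite directions, are shown for their base composition. Oprl1 has 3 RefSeq transcription starts (GRCm38.p6) and Oprd1 has 1. The windows hold the 250 bases before the most upstream start, at chr2:181714766-181715015 on the plus strand for Oprl1 and at chr4:132144487-132144736 on the minus strand for Oprd1. Capitals mark the GC box GGGCGG and the E-box CACGTG, each searched on both strands.
Oprl1: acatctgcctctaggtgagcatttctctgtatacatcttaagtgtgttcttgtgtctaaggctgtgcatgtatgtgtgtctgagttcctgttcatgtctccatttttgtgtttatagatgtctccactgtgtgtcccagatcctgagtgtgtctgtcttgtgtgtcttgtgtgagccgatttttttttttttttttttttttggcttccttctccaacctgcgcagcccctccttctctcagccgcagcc
Oprd1: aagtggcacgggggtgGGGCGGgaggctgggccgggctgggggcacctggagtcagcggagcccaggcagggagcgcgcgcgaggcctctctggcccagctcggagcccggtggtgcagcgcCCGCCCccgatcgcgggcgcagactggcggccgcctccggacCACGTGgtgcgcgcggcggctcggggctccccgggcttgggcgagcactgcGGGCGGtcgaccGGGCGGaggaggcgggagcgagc
The Oprd1 window had a GC content of 80% and 34 CpG dinucleotides, with 4 GC boxes and 1 E-box, and 98.8% of the 32851 windows of all genes had a lower GC content. The Oprl1 window shown had a GC content of 44.4%, 3 CpG dinucleotides, neither motif and a run of 23 T bases, and 22.1% of windows had a lower GC content. It is the poorest in GC of the 3 Oprl1 windows. The other two, before the starts further downstream, had a GC content of 54.8% and 48.8%, with 57.8% and 36.6% of windows lower, 1 and 2 CpG dinucleotides and neither motif. The median window had a GC content of 52.4% and 6 CpG dinucleotides. A GC box was present in 32.7% of all windows and an E-box in 6.02%. The cyclic AMP response half-site TGACG, present in 17.8% of windows, was found in none of these windows. RefSeq windows matched 4 of the 7 genes, Pdyn, Oprm1, Oprd1 and Oprl1. These matches describe the sequence only.

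Among the precursors, Penk was the most abundant. Penk (ENSMUSG00000045573.9, chr4:4133531-4138819, minus strand, GRCm38) stood at 549, 622, 608 and 625 CPM in Cre- mice 1 to 4, and at 501, 454, 464 and 492 CPM in D9-Cre-Bcl11b tm1.1Leid mice 1 to 4. Every D9-Cre-Bcl11b tm1.1Leid mouse lay below the lowest Cre- mouse. The means were 601 ± 35.7 and 478 ± 22.4 CPM (SD, n = 4 per group), a log2 fold change of −0.33 (SE 0.06, 95% interval −0.46 to −0.20, edgeR adjusted p = 0.00381). With 25140 to 34917 counts per library, Penk had the smallest standard error of the 7 genes. An exact two-sided permutation test of its log2 CPM gave p = 0.0286, the smallest value that 4 against 4 mice allow. Leaving out each mouse in turn kept the log2 fold change between −0.37 and −0.30, but the call was lost without Cre- mouse 2 (adjusted p = 0.0123), Cre- mouse 3 (adjusted p = 0.0128) or D9-Cre-Bcl11b tm1.1Leid mouse 3 (adjusted p = 0.0174). An antisense transcript, A830012C17Rik, overlaps 233 exonic bases of Penk and averaged 1.09 CPM in Cre- mice, and whether reads in these bases were assigned by strand is not stated.

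Penk was also set against other MSN transcripts of the same library, which removes library scaling. The log2 ratio of Penk to Drd2 was 2.51, 2.71, 2.74 and 2.80 in Cre- mice and 2.97, 2.92, 2.92 and 3.05 in D9-Cre-Bcl11b tm1.1Leid mice. The groups did not overlap, and Drd2 was lower by more than Penk was. The mean rose by 0.27, from 2.69 ± 0.13 to 2.96 ± 0.06 (SD, n = 4 per group, exact permutation p = 0.0286, adjusted over 6 ratios 0.171). Since 4 against 4 mice allow no p under 0.0286, no ratio could reach 0.01 in this test, and the ratios are given as descriptions. The log2 ratio of Penk to Ppp1r1b was −0.43 ± 0.15 in Cre- mice and −0.25 ± 0.09 in D9-Cre-Bcl11b tm1.1Leid mice, with overlapping groups (exact permutation p = 0.0857, adjusted 0.171). Ppp1r1b, like Drd2, was lower by more than Penk was, with a log2 fold change of −0.51.

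Pdyn differed more between mice of one group than between groups. Pdyn (ENSMUSG00000027400.11, chr2:129686565-129699844, minus strand) stood at 56.2, 119, 68.7 and 130 CPM in Cre- mice and at 113, 65.6, 103 and 120 CPM in D9-Cre-Bcl11b tm1.1Leid mice. Cre- mice 1 and 3 and D9-Cre-Bcl11b tm1.1Leid mouse 2 were low and the other 5 mice were high. The log2 fold change was 0.10 (SE 0.26, 95% interval −0.48 to 0.68, edgeR adjusted p = 0.843), an interval that leaves room for a moderate change in either direction. The counts of 2798 to 7891 per library show that depth did not limit the value. The sign itself depended on single mice, with log2 fold changes of −0.077 without Cre- mouse 1 and −0.017 without Cre- mouse 3.

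The groups overlapped in the ratios of Pdyn to the direct-pathway genes and to Penk, which the same smallest p of 0.0286 limits. The log2 ratio of Pdyn to Drd1 was −2.68 ± 0.67 in Cre- mice and −2.27 ± 0.33 in D9-Cre-Bcl11b tm1.1Leid mice (SD, n = 4 per group, exact permutation p = 0.257). That of Pdyn to Tac1 was −2.24 ± 0.32 and −2.57 ± 0.26 (exact permutation p = 0.171). The log2 ratio of Pdyn to Penk was −2.77 ± 0.52 and −2.29 ± 0.34 (exact permutation p = 0.171).

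Pnoc was near the limit of detection. Pnoc (ENSMUSG00000045731.6, chr14:65400673-65425472, minus strand) was covered by 12, 11, 24 and 62 reads in Cre- mice and by 20, 18, 20 and 28 reads in D9-Cre-Bcl11b tm1.1Leid mice. The CPM values were 0.241, 0.230, 0.478 and 1.30 in Cre- mice and 0.287, 0.320, 0.310 and 0.548 in D9-Cre-Bcl11b tm1.1Leid mice. The groups overlapped, and mouse 4 of each group was the highest. The log2 fold change of −0.62 (SE 0.54, 95% interval −1.81 to 0.56, edgeR adjusted p = 0.497) became 0.21 (adjusted p = 0.792) without Cre- mouse 4. Those 2 highest mice also had the highest Slc17a7. Without both of them the log2 fold change of Pnoc was −0.05 (adjusted p = 0.961), an alternative chosen after the data were seen. With these low counts and a coefficient of variation of 89.7% among Cre- mice, a change of Pnoc was not detectable.

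Among the receptors, Oprl1 changed most. Oprl1 (ENSMUSG00000027584.16, chr2:181715016-181720985, plus strand) stood at 32.8, 48.3, 38.5 and 49.8 CPM in Cre- mice and at 93.9, 86.3, 86.7 and 92.9 CPM in D9-Cre-Bcl11b tm1.1Leid mice. The lowest D9-Cre-Bcl11b tm1.1Leid mouse lay well above the highest Cre- mouse, and the 4 D9-Cre-Bcl11b tm1.1Leid mice lay close together. The means were 42.4 ± 8.11 and 89.9 ± 3.99 CPM (SD, n = 4 per group), a log2 fold change of 1.09 (SE 0.12, 95% interval 0.83 to 1.34, edgeR adjusted p = 1.53e-04). The exact permutation p was 0.0286, again the smallest possible. The call held without any 1 of the 8 mice, with log2 fold changes of 0.98 to 1.18 and a highest adjusted p of 8.84e-04. Without both mice with high Slc17a7 the log2 fold change was 1.16 (adjusted p = 5.78e-04).

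Oprd1, the delta receptor, fell. Oprd1 (ENSMUSG00000050511.1, chr4:132110726-132144486, minus strand) stood at 46.0, 38.8, 35.5 and 39.8 CPM in Cre- mice and at 29.0, 24.7, 32 and 31.3 CPM in D9-Cre-Bcl11b tm1.1Leid mice. The groups did not overlap, but the gap between Cre- mouse 3 and D9-Cre-Bcl11b tm1.1Leid mouse 3 was narrow. The means were 40.0 ± 4.37 and 29.2 ± 3.31 CPM (SD, n = 4 per group), a log2 fold change of −0.45 (SE 0.10, 95% interval −0.67 to −0.24, edgeR adjusted p = 0.00909). This value lay just inside the threshold and was lost when any 1 of the 8 mice was left out, where the adjusted p ran from 0.0106 to 0.0286 and the log2 fold change from −0.50 to −0.38. DESeq2 gave an adjusted p of 2.63e-04 on all 8 mice.

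Oprk1, the kappa receptor, had a mean of 42.7 ± 4.44 CPM in Cre- mice and 27.3 ± 9.66 CPM in D9-Cre-Bcl11b tm1.1Leid mice (SD, n = 4 per group). Oprk1 (ENSMUSG00000025905.13, chr1:5588466-5606131, plus strand) stood at 40.7, 45.9, 46.9 and 37.5 CPM in Cre- mice and at 28.5, 16.0, 25.1 and 39.4 CPM in D9-Cre-Bcl11b tm1.1Leid mice. D9-Cre-Bcl11b tm1.1Leid mouse 4 lay above Cre- mouse 4, and the other 3 lay below every Cre- mouse. The log2 fold change was −0.65 (SE 0.21, 95% interval −1.11 to −0.19, edgeR adjusted p = 0.0579), which did not pass although its unadjusted interval lies below 0. Without D9-Cre-Bcl11b tm1.1Leid mouse 4 it passed, at −0.88 (adjusted p = 0.00867).

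That mouse stood apart in neighbouring-tissue markers too. Gnb4, a gene of claustrum neurons, stood at 53.4, 66.4, 71.6 and 62.0 CPM in Cre- mice. It stood at 39.1, 29.7, 36.4 and 64.4 CPM in D9-Cre-Bcl11b tm1.1Leid mice, highest in mouse 4 as Oprk1 was. The value of that mouse lay within the Cre- range. The log2 fold changes of the claustrum markers went both ways, at −0.58 for Gnb4, −0.42 for Ntng2, 0.30 for Lxn and 1.31 for Nr4a2. None of the 4 claustrum markers tested passed in edgeR, DESeq2 or limma-voom (1 at an unadjusted p under 0.05), and their summed level was 65.6 to 85.5 CPM in Cre- mice and 44.9 to 95.8 CPM in D9-Cre-Bcl11b tm1.1Leid mice. Of the 8 cortical markers tested, 1 (Cux2) rose, and their summed level was 70.9 to 179 CPM and 67.4 to 188 CPM. Without mouse 4 of both groups the log2 fold change of Oprk1 was −0.93 (adjusted p = 0.00979). The part of these cells in the Oprk1 values was not tested.

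Oprk1 was further set against the precursor of its own ligand. The log2 ratio of Oprk1 to Pdyn was −0.47, −1.37, −0.55 and −1.80 in Cre- mice and −1.99, −2.03, −2.03 and −1.60 in D9-Cre-Bcl11b tm1.1Leid mice. The groups overlapped through Cre- mouse 4 and D9-Cre-Bcl11b tm1.1Leid mouse 4. The mean was −1.05 ± 0.65 and −1.91 ± 0.21 (SD, n = 4 per group, exact permutation p = 0.0571, adjusted 0.171).

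Oprm1, the mu receptor, was the least abundant receptor and did not pass the test. Oprm1 (ENSMUSG00000000766.18, chr10:6758506-7038198, plus strand) stood at 8.06, 11.3, 12 and 10.6 CPM in Cre- mice and at 6.26, 4.68, 7.54 and 9.54 CPM in D9-Cre-Bcl11b tm1.1Leid mice. D9-Cre-Bcl11b tm1.1Leid mouse 4 lay above Cre- mouse 1, and the other 3 lay below all Cre- mice. The means were 10.5 ± 1.71 and 7.0 ± 2.05 CPM (SD, n = 4 per group), a log2 fold change of −0.58 (SE 0.20, 95% interval −1.03 to −0.14, edgeR adjusted p = 0.0759). The counts ran from 263 to 603 per library. Ipcef1 lies antisense across Oprm1 and shares up to 96 exonic bases with it, counted together with another overlapping gene, Gm10945. Ipcef1 averaged 17.3 ± 16.4 CPM in Cre- mice, and whether counting used strand is not given in the sources used here, so that reads in these bases cannot be assigned with certainty.

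**Figure D2:**
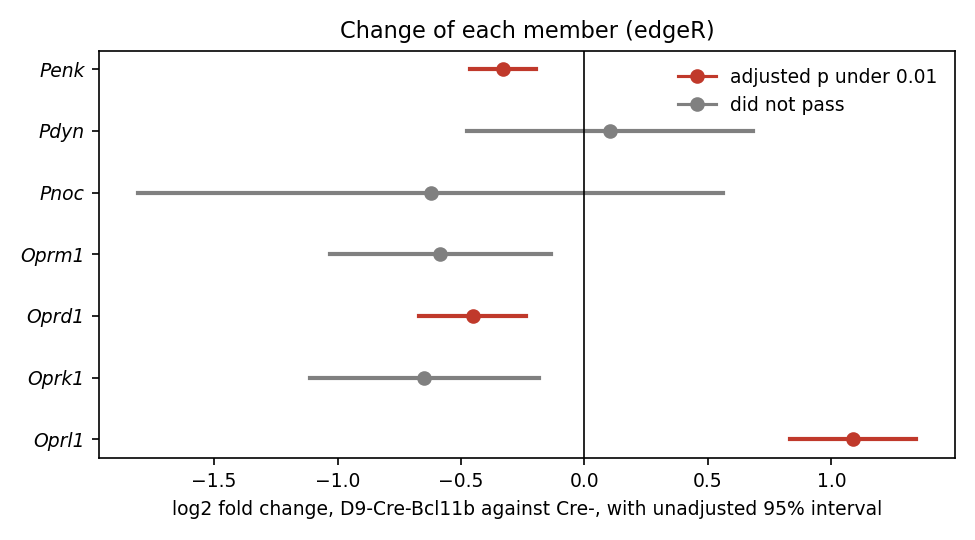
Log2 fold change (horizontal axis) of each opioid gene in D9-Cre-Bcl11b tm1.1Leid mice against Cre- mice, with its unadjusted 95% interval. Red marks an adjusted p under 0.01. Oprl1 lies at 1.09 and Penk and Oprd1 at −0.33 and −0.45, and the intervals of Pdyn and Pnoc include 0.

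D9-Cre-Bcl11b tm1.1Leid mouse 2 had the lowest CPM of its group for Penk, Pdyn, Oprm1, Oprd1, Oprk1 and Oprl1, and was also the mouse with the most Ttr. The summed level of the 6 ependyma and choroid plexus markers was 64.6 to 1708 CPM in Cre- mice and 91.9 to 9721 CPM in D9-Cre-Bcl11b tm1.1Leid mice. Without this mouse Penk stood at −0.31 (adjusted p = 0.00852) and Oprl1 at 1.11 (adjusted p = 3.51e-04) on the log2 scale. Oprd1 stood at −0.38 (adjusted p = 0.0164), Oprk1 at −0.46 (adjusted p = 0.0531) and Oprm1 at −0.43 (adjusted p = 0.130). The part of choroid plexus RNA in these values was not tested.

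Levels of different genes were compared as CPM per kilobase of annotated exon. In Cre- mice the order was Penk (368 ± 21.9), Pdyn (32.4 ± 12.6), Oprl1 (11.3 ± 2.16), Oprd1 (9.96 ± 1.09), Oprk1 (4.67 ± 0.485), Oprm1 (1.31 ± 0.213) and Pnoc (0.261 ± 0.234). Oprl1 and Oprd1 were neighbours that did not differ beyond their spread, since Oprd1 was the higher of the pair in Cre- mouse 1 and Oprl1 in the other 3. In D9-Cre-Bcl11b tm1.1Leid mice Oprl1 rose to 24.0 ± 1.06 and was above Oprd1 (7.27 ± 0.824) in every mouse. Penk stood at 293 ± 13.7, Pdyn at 34.8 ± 8.38, Oprk1 at 2.98 ± 1.06, Oprm1 at 0.872 ± 0.256 and Pnoc at 0.170 ± 0.0566. These levels depend on the gene length used. With the longest transcript in place of all exons, the Cre- levels of Oprk1 and Oprm1 were 9.14 and 4.34.

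The make-up of receptor mRNA restates these levels as shares, a measure chosen after the data were seen and given without a test. Oprl1 held 34.1, 44.5, 39.9 and 46.4% of the summed level per kilobase of the 4 receptors in Cre- mice and 69.2, 73.1, 66.5 and 65.1% in D9-Cre-Bcl11b tm1.1Leid mice. The groups did not overlap. The mean share was 41.2 ± 5.48% and 68.5 ± 3.52% (SD, n = 4 per group), a difference of 27.3 percentage points. With the longest transcripts the difference was 28.2 points, with no length scaling it was 27.9 points, and without each mouse in turn it was 24.9 to 29.0 points. The mean share of Oprd1 was 36.7 ± 5.29% in Cre- mice and 20.7 ± 1.52% in D9-Cre-Bcl11b tm1.1Leid mice. That of Oprk1 was 17.2 ± 2.29% and 8.36 ± 2.37%, and that of Oprm1 4.80 ± 0.782% and 2.46 ± 0.565%. Shares sum to the whole, so that the lower shares of the other receptors carry the rise of Oprl1 and are not separate results.

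**Figure D3:**
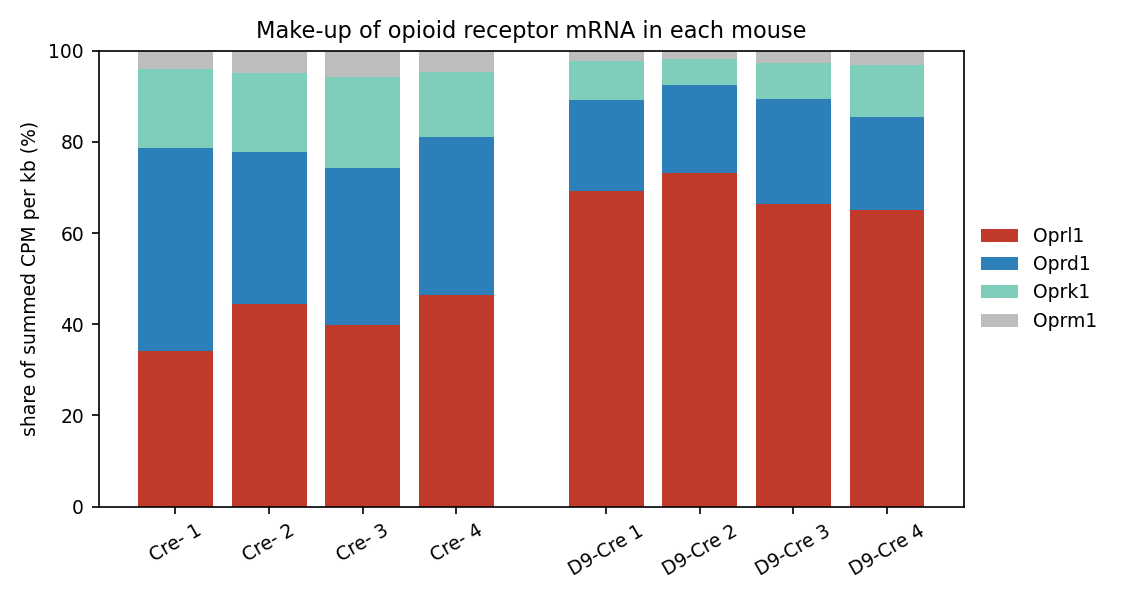
Share of each opioid receptor in the summed receptor CPM per kilobase (vertical axis, percent) in each of the 8 mice, as stacked bars. The Oprl1 share lies between 34.1 and 46.4% in Cre- mice and between 65.1 and 73.1% in D9-Cre-Bcl11b tm1.1Leid mice.

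The groups overlapped in the make-up of precursor mRNA, given in the same way. Penk held 92.0 ± 2.59% of the summed precursor level per kilobase in Cre- mice and 89.4 ± 2.03% in D9-Cre-Bcl11b tm1.1Leid mice (SD, n = 4 per group). Pdyn held 7.94 ± 2.56% and 10.5 ± 2.03%, and Pnoc held 0.0633 ± 0.0532% and 0.0517 ± 0.0156%.

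Other genes of opioid signalling were read from lists, whose counts stand against the 8.78% of all genes tested that passed (4.87% higher, 3.91% lower). Of 9 genes that process the precursors, 2 rose, 0 fell and 7 did not pass, with a median log2 fold change of 0.18. Pam, which amidates peptide ends, rose from 289 ± 40.7 to 430 ± 28.4 CPM (SD, n = 4 per group; log2 fold change 0.58, edgeR adjusted p = 0.00206). Pcsk1n, the gene for proSAAS, an inhibitor of the convertase of Pcsk1, rose from 67.1 ± 2.35 to 87.6 ± 6.17 CPM (0.38, adjusted p = 0.00126). The convertase gene Pcsk2 stood at 306 ± 10.4 and 350 ± 17.9 CPM and did not pass in edgeR (0.19, adjusted p = 0.0250). DESeq2 called Pcsk2 higher (adjusted p = 0.00709), and limma-voom did not (adjusted p = 0.0202). None of 10 peptidase genes that can degrade opioid peptides passed in edgeR, DESeq2 or limma-voom, while 3 had an unadjusted p under 0.05. Mme, the gene for the enkephalinase neprilysin, stood at 119 ± 26.4 and 132 ± 17.0 CPM (0.15, adjusted p = 0.564).

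Downstream of the receptors, 16 genes of G proteins, adenylyl cyclases and ion channels included 1 that rose, 1 that fell and 14 that did not pass, with a median log2 fold change of −0.03. The 12.5% that passed was near the 8.78% of all genes tested. Kcnj9, a subunit of the potassium channel that G protein βγ subunits open, rose from 46.7 ± 3.27 to 81.2 ± 4.28 CPM (0.80, adjusted p = 2.38e-05). Its partner Kcnj3 stood at 24.5 ± 9.71 and 45.4 ± 4.90 CPM with groups apart but did not pass in edgeR (0.89, adjusted p = 0.0152). DESeq2 (adjusted p = 0.00907) and limma-voom (adjusted p = 0.00565) called Kcnj3 higher. Gng7, the gamma subunit abundant in MSNs, fell from 415 ± 31.8 to 316 ± 30.4 CPM (log2 fold change −0.39, adjusted p = 0.00617). This call was lost in 7 of the 8 fits that left out 1 mouse, all but that without Cre- mouse 4. Gnao1, the Go alpha subunit, stood at 200 ± 5.71 and 167 ± 13.4 CPM and did not pass in edgeR (−0.26, adjusted p = 0.0118). DESeq2 called Gnao1 lower (adjusted p = 0.00161), and limma-voom did not (adjusted p = 0.0119).

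Of 13 genes for receptor desensitization and sorting, 4 rose, 1 fell and 8 did not pass, with a median of 0.15, so that 38.5% passed against 8.78% of all genes tested. Grk2, a kinase that phosphorylates active receptors, rose from 81.3 ± 3.54 to 112 ± 7.29 CPM (0.46, adjusted p = 4.11e-04), and Arrb2, an arrestin that binds them, from 20.6 ± 1.57 to 25.9 ± 0.997 CPM (0.33, adjusted p = 0.00744). Rgs4, which speeds the shut-off of Gi and Gq proteins, and Gprasp2, of a family that sorts receptors to lysosomes, also rose, by 0.41 (adjusted p = 0.00445) and 0.34 (adjusted p = 0.00333) on the log2 scale. Grk5, another receptor kinase, fell from 30.1 ± 2.74 to 20.3 ± 1.71 CPM (log2 fold change −0.57, adjusted p = 0.00117). The other arrestin gene of the list, Arrb1, was more abundant than Arrb2, at 408 ± 2.97 and 374 ± 34.5 CPM. Arrb1 was lower with groups apart but did not pass (−0.13, adjusted p = 0.233). Without D9-Cre-Bcl11b tm1.1Leid mouse 1, 3 or 4, 1 gene of the list rose, and without Cre- mouse 2 or 3, 2 did.

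A further 5 opioid-related genes included 2 that rose, 0 that fell and 3 that did not pass, with a median of 0.08. Pomc, the precursor of beta-endorphin, was low, with 74 to 284 counts per library. It stood at 2.27, 1.55, 1.85 and 2.14 CPM in Cre- mice and at 4.08, 3.58, 2.96 and 3.33 CPM in D9-Cre-Bcl11b tm1.1Leid mice, with a log2 fold change of 0.84 (adjusted p = 0.00705). Of the hypothalamic markers, Agrp, with 9 to 46 counts per library, had the same log2 fold change of 0.84 but did not pass (adjusted p = 0.166). Oxt, with 4 to 40 counts per library, went the other way and did not pass (−0.49, adjusted p = 0.704). Hcrt, Pmch and Gal had too few counts to be tested. The part of hypothalamic cells in the Pomc values was not tested. Ogfod1, a hydroxylase whose name alone ties it to opioid growth factor, rose by 0.28 (adjusted p = 0.00759). Leaving out any 1 mouse left 0 or 1 of these calls.

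**Figure D4:**
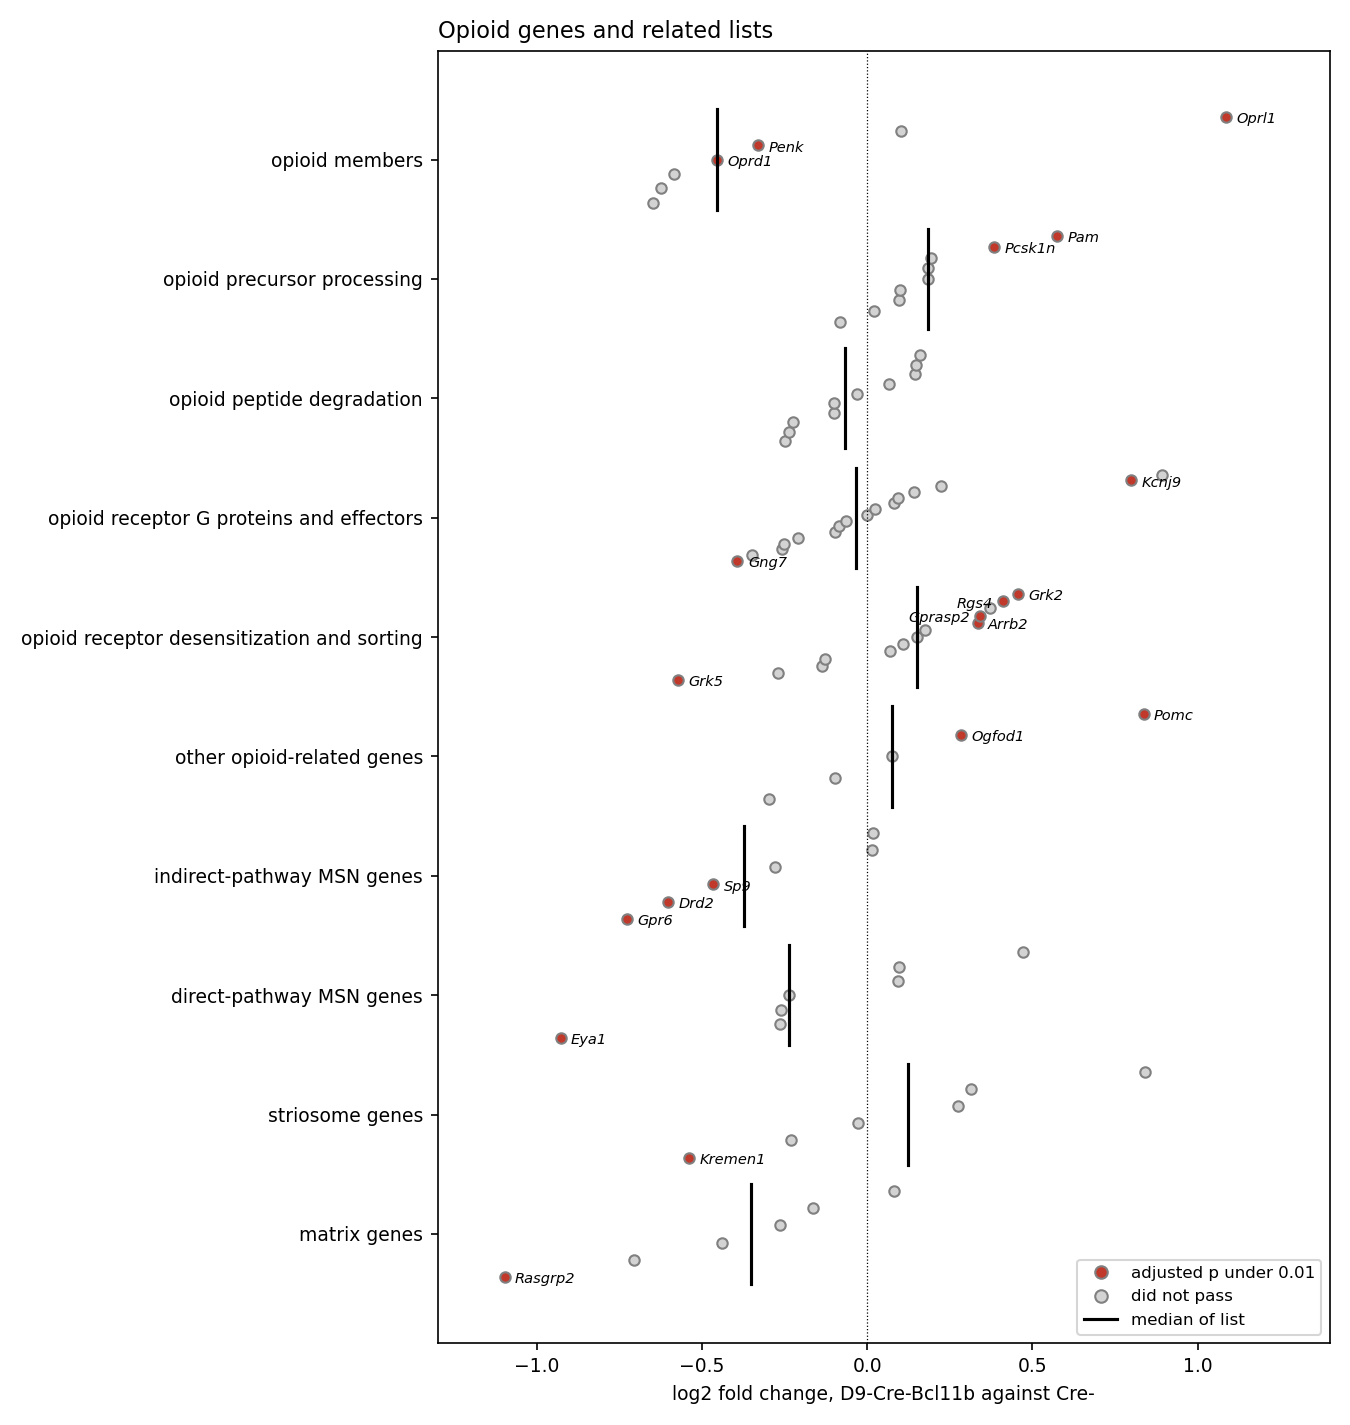
Log2 fold change in D9-Cre-Bcl11b tm1.1Leid against Cre- mice (horizontal axis) of the opioid genes and of the related lists (rows), 1 point per gene. Red points passed an adjusted p under 0.01 and are named, and black bars give the median of each list. Oprl1, at 1.09, is the highest red point.

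The MSN classes in which the precursors are expressed were described in the same way, without the opioid genes. Over all genes tested, 8.78% passed and 3.91% were lower, and 1 call in lists as short as these cannot be told from such a share. Of 6 genes of indirect-pathway MSNs, 3 fell, 0 rose and 3 did not pass, with a median of −0.37. Drd2 fell from 93.0 ± 3.15 to 61.2 ± 2.0 CPM (log2 fold change −0.60, adjusted p = 2.35e-05) and the orphan receptor Gpr6 from 145 ± 9.84 to 87.7 ± 5.79 CPM (−0.73, adjusted p = 4.38e-05). Without any 1 mouse, 2 of the 3 calls were left. Of 7 genes of direct-pathway MSNs, 1 fell (Eya1, −0.93, adjusted p = 0.00730), 0 rose and 6 did not pass, with a median of −0.24. No gene of this list fell in 6 of the 8 fits that left out 1 mouse, and 2 fell without Cre- mouse 2. Drd1 stood at 566 ± 48.1 and 472 ± 32.8 CPM (−0.26, adjusted p = 0.0314) and Tac1 at 422 ± 90.3 and 585 ± 60.5 CPM (0.47, adjusted p = 0.0365). Neither passed in edgeR or limma-voom, but DESeq2 called Drd1 lower (adjusted p = 0.00717) and Tac1 higher (adjusted p = 0.00303). Striosome genes had 1 of 6 that fell (Kremen1, −0.54, adjusted p = 0.00237) and a median of 0.12. Kremen1 did not pass without D9-Cre-Bcl11b tm1.1Leid mouse 3. Lypd1 of the same list stood at 58.9 ± 21.1 and 105 ± 3.66 CPM with groups apart and did not pass in edgeR (0.84, adjusted p = 0.0153), but was called higher by DESeq2 (adjusted p = 0.00883) and limma-voom (adjusted p = 0.00796). Matrix genes had 1 of 6 that fell (Rasgrp2, −1.10, adjusted p = 3.01e-04) and a median of −0.35. None of the 9 markers of GABA interneurons tested passed in edgeR, DESeq2 or limma-voom (1 at an unadjusted p under 0.05), and their summed level was 190 to 246 CPM in Cre- mice and 192 to 265 CPM in D9-Cre-Bcl11b tm1.1Leid mice. The 1 marker, Th, stood at 7.99 ± 3.27 CPM in Cre- mice and 19.6 ± 6.15 CPM in D9-Cre-Bcl11b tm1.1Leid mice, with groups apart. Its log2 fold change was 1.30 (adjusted p = 0.0180 in edgeR, 0.0110 in DESeq2 and 0.0197 in limma-voom).

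The genes whose log2 CPM profile over the 8 mice was most like that of each changed member were found among 16325 others, as the root mean square difference after centring on Cre- mice. Penk was nearest to Ogt (0.0324) and Aff4 (0.0435), and the next feature carried a symbol that a spreadsheet had turned into a date. Oprd1 was nearest to Samhd1 (0.0795), Slc41a1 (0.0814) and Gm35040 (0.0846). Oprl1 was nearest to 6330403K07Rik (0.0621), Galnt16 (0.0624) and Brinp2 (0.0748). These are descriptions over 8 mice of 2 groups, in which any gene that changed to the same extent comes near.

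Within 100 kb of the opioid genes, 17 annotated neighbours were tested and 3 passed, 17.6% against 8.78% of all genes tested, named here after their values were seen. Tcea2, a transcription elongation factor gene, and Myt1, a zinc finger gene, lie on either side of Oprl1. They rose from 21.8 ± 3.96 to 34.7 ± 2.54 CPM (0.67, adjusted p = 0.00265) and from 30.1 ± 1.84 to 40.7 ± 2.40 CPM (0.43, adjusted p = 0.00130). Prpf6 (0.0014, adjusted p = 0.989), Sox18 (−0.078, adjusted p = 0.899) and Gm29797 (−0.49, adjusted p = 0.525), also near Oprl1, did not pass. Rgs19, which lies between Tcea2 and Oprl1, stood at 7.64 ± 1.01 and 8.63 ± 0.812 CPM (0.18, adjusted p = 0.392). Epb41, a membrane skeleton gene near Oprd1, fell from 162 ± 16.0 to 104 ± 4.16 CPM (−0.64, adjusted p = 1.95e-04). The other tested neighbours of Oprd1 did not pass. They were Ythdf2 (0.079, adjusted p = 0.340), Gmeb1 (−0.26, adjusted p = 0.0401), Gm10300 (−0.57, adjusted p = 0.284) and Gm13063 (−0.26, adjusted p = 0.789). A link between these genes and their opioid neighbours was not tested.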

How the data were processed

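Left striatal RNA of 8 mice was sequenced as ribosomal RNA-depleted, paired-end libraries. Per the submitters' processing notes and the methods, the authors trimmed reads with Trim Galore 0.6.4, aligned them with STAR 2.7.2b, counted them per gene with featureCounts and applied DESeq2. Settings for strand and multimapping: not given in the sources used here. Both deposited tables were read, and hold raw counts and rlog values on the log2 scale, the latter matching a DESeq2 rlog recomputed from the counts within 0.000525. The raw counts were used, and the rlog values served as an alternative. Coordinates and exon lengths came from the GRCm38 annotation.

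Genes were filtered with filterByExpr (minimum count 10, minimum total 15), scaled by TMM and tested with edgeR 4.0.16 (quasi-likelihood, two-sided, R 4.3.3). P-values of the 22173 genes were adjusted by Benjamini-Hochberg, and 0.01 was the threshold. The tools were checked on simulated data. Log2 ratios were compared by two-sided exact permutation over the 70 assignments of mice. Alternatives were DESeq2 1.42.0, limma 3.58.1 (voom, and on rlog values), RLE factors, library sizes alone, other filters, robust dispersion, a replicate block and leaving out mice. Each library is from a separate mouse.

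The members and lists were chosen with earlier results of these data known. Named genes were the 7 opioid genes, up to 6 passing genes of each list, genes of the 6 ratios, Bcl11b and the 3 most similar genes averaging 1 CPM or more. Other genes are named where a result turns on them. Of the other marker lists, 4 of 8 MSN markers fell, against 3.91% of all genes tested. None of 6 astrocyte, 6 oligodendrocyte, 6 microglia, 5 endothelial, 5 cholinergic, 3 globus pallidus, 3 ventral striatum and 6 ependymal and choroid plexus markers passed in edgeR (1 astrocyte, 1 cholinergic, 1 ventral striatum and 1 ependymal marker had an unadjusted p under 0.05, and DESeq2 called 1 cholinergic marker), and of 3 hypothalamic markers tested 1, Pomc, rose, with 2 at an unadjusted p under 0.05.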

Additional observations from a re-analysis of the deposited data

Results flagged for a closer look

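The Pnoc level of D9-Cre-Bcl11b tm1.1Leid mouse 4, 0.548 CPM, stood far from the other mice of its group, which lay between 0.287 and 0.320 CPM. The log2 ratio of Oprk1 to Pdyn in the same mouse, −1.60, stood far from the −2.03 to −1.99 of the other 3. Of 26 groups of 4 mice examined for such distant values, chance would mark about 1 in 20.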

How the results depend on the processing

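Oprl1 kept its direction and its call in all 9 alternatives on all 8 mice (log2 fold change 0.89 to 1.11) and without each mouse in turn. Penk and Oprd1 each passed in 8 of the same 9. Without each mouse in turn, Penk passed in 5 of 8 fits and Oprd1 in 0 of 8. Across the table, 1947 genes passed, against 3208 by DESeq2 and 1102 to 2066 without each mouse in turn. For the 9 lists around the opioid genes together, 17 genes passed, against 27 by DESeq2 and 8 to 15 without each mouse in turn. Without each mouse in turn the log2 fold change was −0.37 to −0.30 for Penk, −0.50 to −0.38 for Oprd1, −0.88 to −0.46 for Oprk1, −0.077 to 0.31 for Pdyn and −0.88 to 0.21 for Pnoc, those of Pdyn being negative without Cre- mouse 1 (−0.077) or Cre- mouse 3 (−0.017) and that of Pnoc positive without Cre- mouse 4. Without mouse 4 of each group, the 2 mice with the highest Slc17a7, an alternative chosen after the data were seen, Penk (−0.32, adjusted p = 0.0203) and Oprd1 (−0.48, adjusted p = 0.0289) no longer passed and Oprk1 passed (−0.93). Fewer mice were fitted there, and the cause was not tested further. With the longest transcript as length, the Cre- level per kilobase was 415 for Penk, 13.7 for Oprl1, 9.14 for Oprk1 and 4.34 for Oprm1. Pnoc was not tested under a filter of 1 CPM in 4 mice.

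Correlations between mice gave no sign that replicate numbers pair them, but with 4 mice per group they cannot exclude it. Mouse 4 of both groups had the highest Slc17a7. Deviations of same-numbered mice from their group means correlated at −0.394 to 0.0815, and 1 of 4 Cre- and 0 of 4 D9-Cre-Bcl11b tm1.1Leid mice correlated best with its own number. With the replicate number as a block, 1165 genes passed, and the log2 fold changes were −0.33 for Penk (adjusted p = 0.0195) and −0.45 for Oprd1 (adjusted p = 0.0203).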
